A study of Homo sapiens with 6 samples.

Results

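Asparagine synthetase (ASNS) and 9 genes of the ATF4 stress response (ATF4, DDIT3, TRIB3, CHAC1, PSAT1, PHGDH, SHMT2, SLC7A11 and SLC7A5) were examined by polyA RNA-seq in the cell line MOLT-4, long established from a human leukemia of T-cell origin (T-ALL). These 10 genes were chosen by symbol, with earlier results of these data known, out of 60640 gene identifiers in the deposited tables. Each symbol matched 1 identifier, and all 10 passed the filter of a mean of at least 1 FPKM that left 12652 genes to test. FPKM are fragments scaled for transcript length and for the number of mapped fragments, so levels of different genes can be compared. There were 2 groups with 3 libraries each: wild type, labelled as control for CRISPR editing, and IK-KO, edited with CRISPR-Cas at IKZF1, which encodes the DNA-binding protein IKAROS. Both were grown in RPMI1640 with 10% FBS. The study bought the edited cells and their control as a pair and reports checking the knockout by PCR and western blot. It blotted IKAROS in a pair of knockout clones, but the labels do not say which clone was sequenced. The labels do not say whether the libraries came from separate cultures, so p-values measure only the spread between these libraries, and differences between the lines other than the loss of IKAROS cannot be told apart from it.

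ATF4 is a transcription factor whose protein is made when the initiation factor eIF2 is phosphorylated, which slows most translation but lets upstream reading frames of the ATF4 message be bypassed. Its level is therefore set largely at translation, and its messenger RNA alone does not report its activity. ATF4 turns on genes for amino acid synthesis, amino acid uptake and transfer RNA charging, together with the stress regulators DDIT3, TRIB3 and CHAC1. ASNS, which makes asparagine from aspartate and glutamine, is a classic target and is of interest in leukemia because the drug asparaginase removes asparagine from the blood, and lymphoblasts with little ASNS depend on that supply.

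ATF4 binds with C/EBP partners at a composite element whose core reads TGATGNAA. Windows from 250 bases before to 50 bases after the RefSeq start sites (GRCh38.p14) were given for 8 of the 10 genes, all but SHMT2 and SLC7A11, and were searched on both strands. The core was found in 2 of these 8 genes, ASNS and CHAC1, and in 2.49% of the 8922 tested genes with a window. Of the 988 such genes that rose, 2.83% held it. The stretches of 60 bases around the match are printed for these 2 genes. They read 5′ to 3′ on the gene's strand, and the capitals mark the match.
ASNS: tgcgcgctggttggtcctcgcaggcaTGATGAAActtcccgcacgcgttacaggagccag
CHAC1: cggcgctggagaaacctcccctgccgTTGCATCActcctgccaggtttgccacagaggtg
The ASNS stretch lies at chr7:97872443-97872502 on the minus strand, and its match begins 68 bases before the RefSeq start used. That of CHAC1 lies at chr15:40953236-40953295 on the plus strand, where the match reads on the other strand and begins at base 209 before the RefSeq start used. Both stretches lie inside the gene spans that the deposited tables give, downstream of the outermost start there. The IKAROS core TGGGAA was present in the window of 1 of the 8 genes, SLC7A5, and in 27.6% of the tested genes with a window. A match is a sequence of letters and was not tested as a binding site, and its absence says only that these letters are not in this window.

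Between 21254 and 21887 rows per library were above 0, mitochondrial transcripts held between 13.0% and 14.4% of the summed FPKM, and relative depth, judged from the deposited confidence bounds, ran from 0.899 to 1.11 of the mean with overlapping groups. All 12 markers of the T lineage were above 0 in every library (0.986 to 739 FPKM). Over all tested genes the groups did not overlap in 39.0%, 20.9% with the higher values in IK-KO. Among these 12 markers they did not overlap in 4 that were higher and 5 that were lower under the IK-KO label. CD2, for example, was at 58.9 to 63.7 FPKM in wild type and 4.98 to 5.39 FPKM under the IK-KO label, and CD247 at 65.0 to 66.6 and 232 to 262 FPKM (named after their values were seen). The part of this difference in the results below was not tested. In contrast, the 12 markers of B, myeloid, erythroid and fibroblast cells reached at most 1.83 FPKM and summed to between 1.58 and 2.73 FPKM in wild type and between 0.946 and 1.77 in IK-KO. IKZF1 itself measured 134, 124 and 105 FPKM in wild type, against 207, 260 and 207 FPKM under the IK-KO label, so its RNA was higher (log2 change 0.89, limma adjusted p = 0.00295) and does not check the label. The group is therefore named by its label.

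Of the 10 genes, 7 rose and none fell: CHAC1, ASNS, SLC7A11, SLC7A5, PSAT1, SHMT2 and PHGDH. TRIB3, DDIT3 and ATF4 were not called. A gene is called here when its limma adjusted p, computed over all 12652 tested genes, is under 0.05, and 19.9% of all tested genes were called, 10.1% higher and 9.75% lower. In 8 of the 10 genes, all but ATF4 and DDIT3, every library labelled IK-KO was above every wild type library, while the groups did not overlap in 39.0% of tested genes, 20.9% with the higher values in IK-KO. The median change of the 10 genes was 0.57 in log2(FPKM + 1), against 0.017 for all tested genes. The choice of the genes was not blind to these data, so these contrasts describe the set and do not test it. The FPKM of the 10 genes summed to 901 ± 26.9 in wild type and 1123 ± 29.1 under the IK-KO label (SD, n = 3, exact permutation p = 0.1, two-sided, the smallest that 3 against 3 libraries allow). These are bulk values, in which a change in every cell and a change in a share of the cells cannot be told apart.

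**Figure D1:**
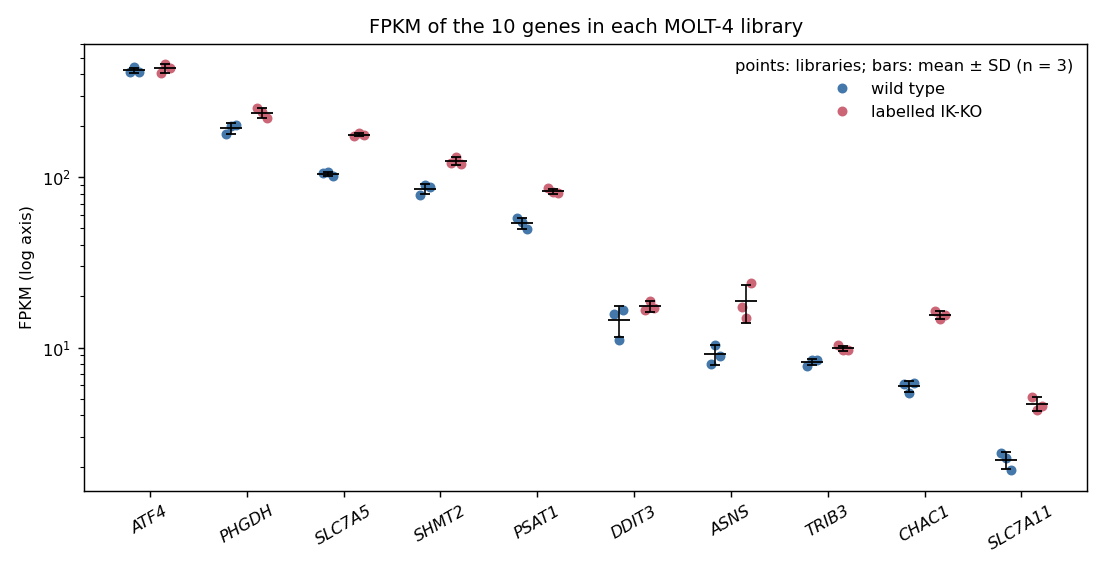
FPKM (log axis) of each of the 10 genes, with 1 point for each wild type library (blue) and each library labelled IK-KO (red), and bars for the mean ± SD of 3 libraries. The groups overlap in ATF4 and DDIT3 and are apart in the other 8 genes, and levels run from 1.91 FPKM (SLC7A11 in wild type) to 458 FPKM (ATF4).

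ASNS (ENSG00000070669.17, chromosome 7, 97851677 to 97872542 on GRCh38, minus strand) measured 8.01, 10.4 and 8.98 FPKM in wild type, against 17.3, 14.9 and 24.0 FPKM under the IK-KO label. Each of the latter was above the highest wild type library, but they spread from 14.9 to 24.0 FPKM, the widest relative spread of the rising genes. The mean went from 9.14 ± 1.22 to 18.7 ± 4.72 FPKM (SD, n = 3), 2.05 times as high, a change of 0.94 in log2(FPKM + 1) (standard error 0.17, limma adjusted p = 0.0102). This change was larger than that of 98.1% of tested genes. With no filter on low values the call was lost (limma adjusted p = 0.0534). Without IK-KO replicate 3, its highest library, the change was 0.76. The deposited confidence bounds, which give the error of each estimate within a library, did not meet between groups: the highest upper bound in wild type was 12.2 FPKM and the lowest lower bound under the IK-KO label was 13.0 FPKM. A noncoding gene on the same strand, AC079781.5, shares 2415 of the 4896 exon bases of ASNS in GENCODE 44, so the 2 values are not independent. Its values were 2.82, 1.03 and 1.09 FPKM in wild type, against 3.47, 2.94 and 3.25 FPKM under the IK-KO label.

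Neither of 2 related genes, ASRGL1 and ASNSD1, was called. ASRGL1, an asparaginase of the cell itself, was at 37.7 ± 5.64 and 36.5 ± 4.15 FPKM (SD, n = 3), with a 95% interval of the log2 change from −0.33 to 0.25 (limma adjusted p = 0.850). ASNSD1, which shares a domain with ASNS, was at 23.4 ± 2.11 and 20.8 ± 1.45 FPKM (SD, n = 3), with an interval from −0.37 to 0.04 (limma adjusted p = 0.247). In the wild type libraries both were above ASNS, while in IK-KO replicate 3 ASNS exceeded ASNSD1. Pseudogene copies of ASNS were listed at 0 in every library.

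ATF4 (ENSG00000128272.14, chromosome 22, 39519695 to 39522685, plus strand) was the most abundant of the 10 genes in every library. It measured 415, 440 and 415 FPKM in wild type, against 410, 458 and 435 FPKM under the IK-KO label, and the groups overlapped throughout. The mean was 423 ± 14.4 and 435 ± 24.2 FPKM (SD, n = 3), a log2 difference of 0.04 with a 95% interval from −0.09 to 0.16 (limma adjusted p = 0.689), so a rise of its RNA by more than 0.16 in log2 units lies outside that interval. Relative to ATF4 the level of ASNS was higher in each library of the second group. With 1 added to each FPKM, the log2 ratio of ASNS to ATF4 was −5.39 ± 0.129 in wild type and −4.49 ± 0.365 under the IK-KO label (SD, n = 3), with no overlap (exact permutation p = 0.1, 0.15 adjusted over 6 ratios). Protein was not measured here.

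**Figure D2:**
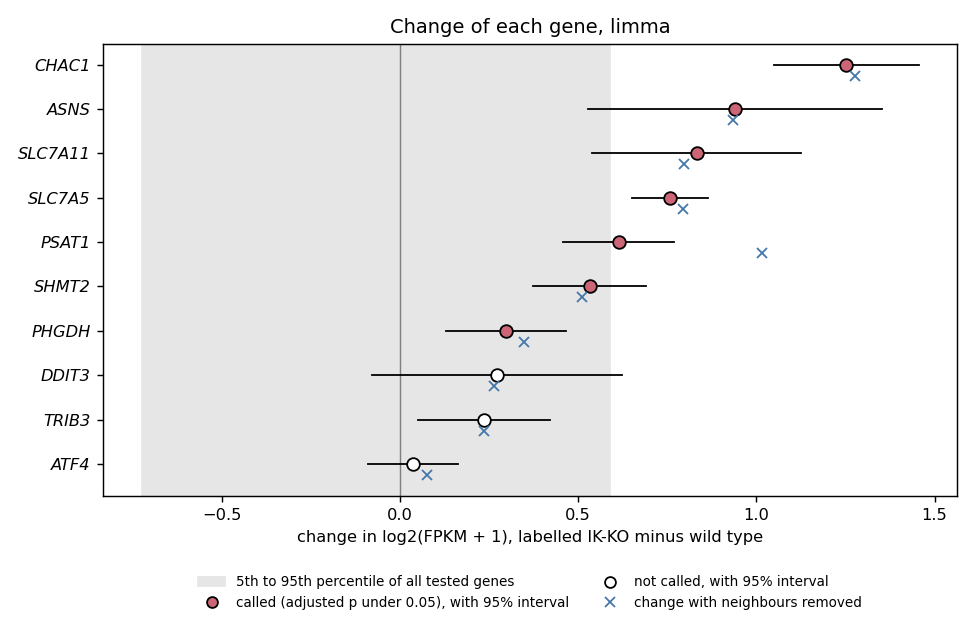
Change in log2(FPKM + 1), libraries labelled IK-KO minus wild type, of each of the 10 genes, with the 95% interval from limma. Filled circles are called, open circles are not, crosses give the change after the median deviation of the 40 nearest tested genes was removed, and the grey band runs from the 5th to the 95th percentile of all tested genes (−0.72 to 0.59). CHAC1 lies farthest right at 1.25, and PSAT1 moves most with its neighbours removed, from 0.61 to 1.02.

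The stress regulators downstream of ATF4 were split. CHAC1, an enzyme that breaks down glutathione, measured 6.15, 5.44 and 6.23 FPKM in wild type, against 16.3, 14.7 and 15.6 FPKM under the IK-KO label. The groups were far apart, and neither spread widely. It rose by 1.25 in log2(FPKM + 1) (standard error 0.086, limma adjusted p = 0.000181), the only one of the 10 past a 2-fold change on that scale, where 1.09% of tested genes were called higher. CHAC1 lies on chromosome 15 at 40952962 to 40956512 (plus strand). DDIT3, which encodes the pro-apoptotic factor CHOP and lies on chromosome 12 at 57516588 to 57521737 (minus strand), measured 15.8, 11.0 and 16.6 FPKM in wild type, against 16.5, 18.9 and 17.0 FPKM under the IK-KO label. The groups overlapped, and wild type replicate 2 was the lowest library. The log2 change was 0.27 (standard error 0.15, limma adjusted p = 0.250), and 0.10 without that replicate. The 95% interval of the change ran from −0.08 to 0.62. DDIT3 shares 355 of its 1307 exon bases with MARS1 on the opposite strand, which was at 89.0 to 116 FPKM and rose, and the sources used here do not say whether counting used strand, so reads of the pair may be mixed and the DDIT3 values are uncertain.

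TRIB3, a pseudokinase that binds ATF4 and CHOP and dampens the response, lies on chromosome 20 at 362835 to 397559 (plus strand). It measured 7.81, 8.41 and 8.51 FPKM in wild type, against 10.3, 9.68 and 9.69 FPKM under the IK-KO label. The groups did not overlap, but the difference was small, a log2 difference of 0.24 (standard error 0.079, 95% interval 0.05 to 0.42), and was not called (limma adjusted p = 0.0782). Of its relatives, TRIB2 fell from 18.0 ± 2.83 to 10.5 ± 2.26 FPKM (SD, n = 3, log2 change −0.74, limma adjusted p = 0.0249, lost in 4 alternatives), while TRIB1 was at 0.559 ± 0.169 and 1.13 ± 0.281 FPKM (SD, n = 3) and was below the filter.

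**Figure D3:**
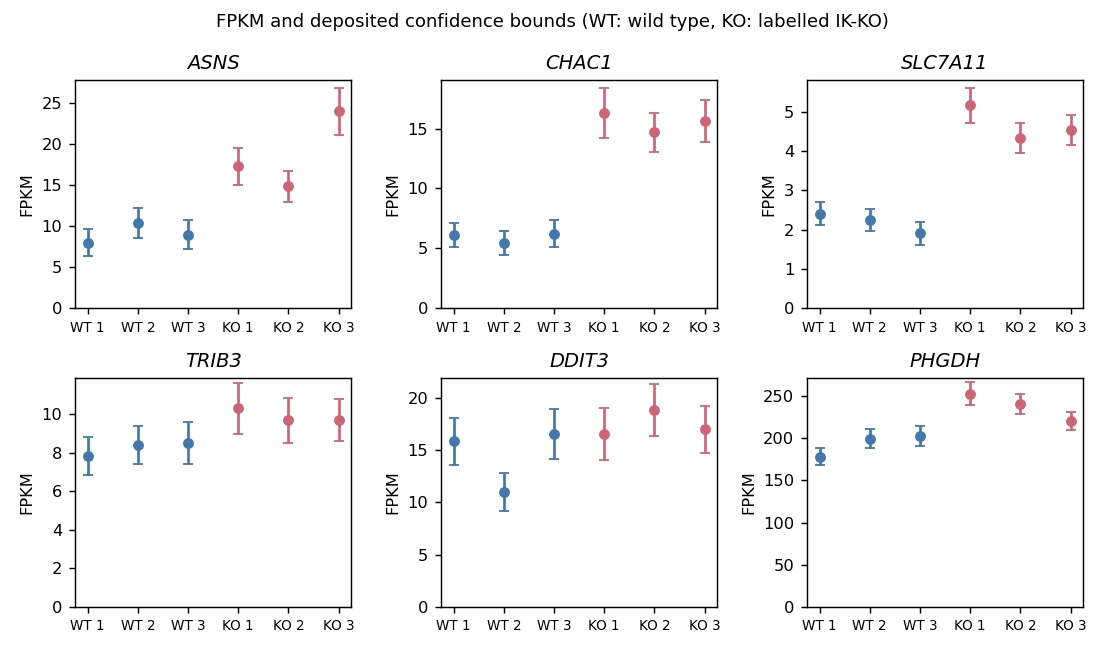
FPKM of 6 of the genes in each library (linear axes from 0), with bars for the lower and upper confidence bounds deposited with each estimate. The bounds of the groups are apart in ASNS, CHAC1 and SLC7A11 and meet in TRIB3, DDIT3 and PHGDH, where the highest wild type upper bound was 214 FPKM and the lowest bound under the IK-KO label 210 FPKM.

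The 3 enzymes that make serine from a glycolytic intermediate all rose. PHGDH, which takes 3-phosphoglycerate into serine synthesis, measured 178, 200 and 202 FPKM in wild type, against 253, 240 and 221 FPKM under the IK-KO label. This was the smallest of the 7 rises, a log2 difference of 0.30 (standard error 0.071, limma adjusted p = 0.0265). In 7 of 17 alternatives the call was lost (limma adjusted p between 0.0555 and 0.0877), including 4 of the 6 fits without 1 library and the replicate block (limma adjusted p = 0.0779). PSAT1, the aminotransferase that follows, measured 57.6, 54.3 and 49.6 FPKM in wild type, against 85.8, 82.2 and 80.2 FPKM under the IK-KO label, a log2 difference of 0.61 (standard error 0.066, limma adjusted p = 0.00116). PSPH, the phosphatase that completes serine, rose as well, from 25.6 ± 1.40 to 46.3 ± 2.25 FPKM (SD, n = 3, log2 change 0.83, limma adjusted p = 0.000333).

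SHMT2, the mitochondrial enzyme that splits serine into glycine and a one-carbon unit, measured 78.9, 90.3 and 87.1 FPKM in wild type, against 120, 131 and 120 FPKM under the IK-KO label. Every library of the latter was well above wild type, with a log2 difference of 0.53 (standard error 0.067, limma adjusted p = 0.00223). MTHFD2, the next mitochondrial enzyme, rose from 108 ± 1.45 to 171 ± 1.77 FPKM (SD, n = 3, log2 change 0.66, limma adjusted p = 0.000118). SHMT1, the cytosolic form, went the other way without being called, from 24.0 ± 0.750 to 19.5 ± 2.55 FPKM (SD, n = 3, log2 change −0.30, limma adjusted p = 0.0811). The linear ratio of SHMT2 to SHMT1 was 3.27, 3.89 and 3.53 in wild type and 7.29, 6.34 and 5.67 under the IK-KO label, which do not overlap (exact permutation p = 0.1, 0.15 adjusted over 6 ratios). The ratio of PSAT1 to PHGDH was also apart, at 0.323, 0.272 and 0.245 in wild type and 0.339, 0.342 and 0.364 under the IK-KO label (exact permutation p = 0.1, 0.15 adjusted).

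PSAT1 lies among genes that mostly fell. It is on chromosome 9 at 78297125 to 78330093 (plus strand), a chromosome on which the 469 tested genes had a median log2 change of −0.35, with 220 called lower and 9 higher. Of the 40 nearest tested genes, at −8.59 to 9.67 Mb from its start, 23 were called lower and 1 higher, and their median was −0.38. PSAT1 went against them, and with their median deviation removed in each library its change was 1.02 (limma adjusted p = 9.62e-05) in place of 0.61. Among the other 9 genes this step moved PHGDH most, from 0.30 to 0.35. The nearest tested neighbour of PSAT1, CEP78, named after its values were seen, fell by 0.27 on the log2 scale. What moves chromosome 9 in these libraries was not tested.

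**Figure D4:**
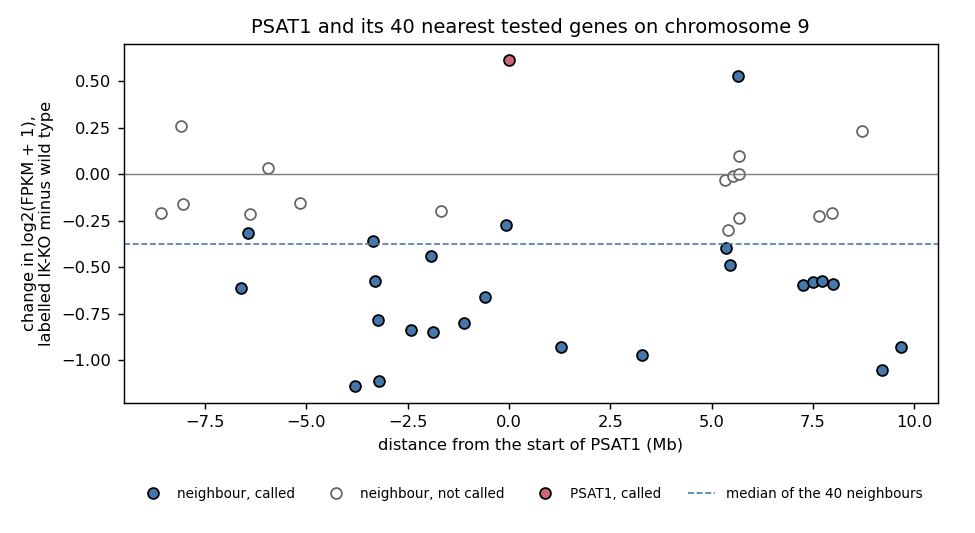
Change in log2(FPKM + 1), libraries labelled IK-KO minus wild type, of PSAT1 (red) and its 40 nearest tested genes on chromosome 9, against the distance of their starts from that of PSAT1 in Mb. Most neighbours lie below 0 around their median of −0.38 (dashed), and PSAT1 at 0.61 is the highest point.

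The amino acid transporters of the set were at very different levels and both rose. SLC7A5, the light chain of the LAT1 exchanger that imports leucine and other large neutral amino acids, measured 106, 107 and 101 FPKM in wild type, against 173, 182 and 178 FPKM under the IK-KO label. It had the smallest limma adjusted p of the 10 genes, 0.000112, at a log2 difference of 0.76 (standard error 0.045), and lies on chromosome 16 at 87830023 to 87869507 (minus strand). Its copies SLC7A5P1 and SLC7A5P2 were listed at 2.30 to 7.41 FPKM and can exchange fragments with it. SLC7A11, the light chain of the cystine and glutamate exchanger (chromosome 4, 138164097 to 138242349, minus strand), was the lowest of the 10 genes, at 2.41, 2.24 and 1.91 FPKM in wild type, against 5.16, 4.33 and 4.52 FPKM under the IK-KO label. Its values did not overlap, and it rose by 0.83 in log2(FPKM + 1) (standard error 0.12, limma adjusted p = 0.00446), a scale that understates the change of so low a gene, whose means differed 2.14-fold.

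SLC3A2, the heavy chain with which both light chains pair, rose from 97.9 ± 3.65 to 150 ± 6.66 FPKM (SD, n = 3, log2 change 0.61, limma adjusted p = 0.000487). Light and heavy chain of LAT1 were thus at nearly equal levels, with a linear ratio of SLC7A5 to SLC3A2 of 1.11, 1.05 and 1.05 in wild type and 1.15, 1.16 and 1.24 under the IK-KO label (exact permutation p = 0.1, 0.15 adjusted over 6 ratios). SLC7A11 stood at 0.0198 to 0.0252 of SLC3A2 in wild type and 0.0277 to 0.0342 under the IK-KO label, where on the log2 scale with the pseudocount the groups overlapped (exact permutation p = 0.2).

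The order of the levels was nearly the same in both groups. In wild type it ran from ATF4 through PHGDH, SLC7A5, SHMT2, PSAT1, DDIT3, ASNS, TRIB3 and CHAC1 to SLC7A11, and the ranges of neighbours in that order overlapped only for ASNS and TRIB3. In the libraries labelled IK-KO the first 5 and the last kept their places. ASNS stood above DDIT3, with overlapping ranges, and CHAC1 above TRIB3, without overlap.

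The genes whose log2(FPKM + 1) most resembled that of ASNS over the 6 libraries were GSEC (Pearson r = 0.997), XPOT (0.993), TTLL1 (0.993), SNAPIN (0.992) and ZNF841 (0.992). XPOT, which exports transfer RNA from the nucleus, belongs to the ATF4 list below and went from 43.3 ± 1.86 to 54.2 ± 3.28 FPKM (SD, n = 3). Among the other 9 genes of the set, r with ASNS lay between 0.29 (ATF4) and 0.90 (SLC7A5). The libraries form 2 groups, so r mostly follows the group difference, and 525 of the tested genes exceeded 0.9.

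Genes of the same pathway outside the 10 were counted in lists, which were also chosen with earlier results of these data known. Of 22 further ATF4 factors and targets, 16 were tested, 9 rose and 1 fell, 62.5% called against 19.9% of all tested genes, with a median log2 change of 0.41 against 0.017. ATF5, a relative of ATF4 that is also controlled at translation, rose most, from 32.6, 33.9 and 29.8 FPKM in wild type to 159, 151 and 152 FPKM under the IK-KO label, a log2 difference of 2.23 (standard error 0.061, limma adjusted p = 7.05e-06). Its means differed 4.79-fold, a larger change than that of any of the 10 genes. CEBPB, a partner of ATF4, rose from 11.0 ± 0.697 to 17.8 ± 2.18 FPKM (SD, n = 3, limma adjusted p = 0.00615), while CEBPG and ATF3 were not called (limma adjusted p = 0.106 and 0.0826), though ATF3 was without IK-KO replicate 1 (limma adjusted p = 0.0172). The single fall was DDIT4, an inhibitor of mTORC1, from 22.3 ± 0.560 to 8.28 ± 0.930 FPKM (SD, n = 3, log2 change −1.33, limma adjusted p = 0.000155).

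None of the 4 kinases that phosphorylate eIF2 was called. EIF2AK4 (GCN2), the sensor of uncharged transfer RNA, was at 14.8 ± 1.99 and 14.0 ± 0.607 FPKM, and EIF2AK3 (PERK), the sensor of the endoplasmic reticulum, at 6.39 ± 1.75 and 7.25 ± 0.373 FPKM (SD, n = 3). EIF2AK1, EIF2AK2 and the phosphatase subunit PPP1R15A were not called either (limma adjusted p from 0.220 to 0.936 over these 5 genes). Of the 18 genes of this list 17 were tested and 1 was called, or 5.88% against 19.9% of all tested genes. This was OMA1, a mitochondrial protease, which fell from 12.1 ± 1.08 to 7.33 ± 1.10 FPKM (SD, n = 3, limma adjusted p = 0.0101). The median log2 change of the 17 tested genes of this list was 0.017.

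**Figure D5:**
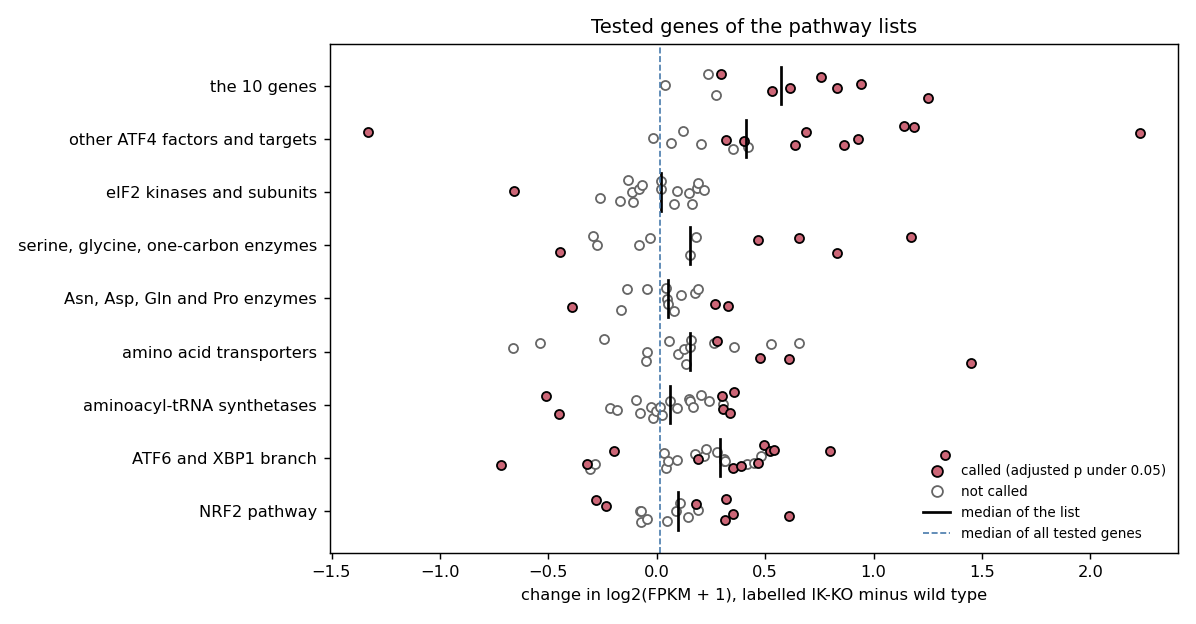
Change in log2(FPKM + 1), libraries labelled IK-KO minus wild type, of the tested genes of each list, with filled points for called genes, open points for the rest, a black bar at the median of each list and a dashed line at the median of all tested genes (0.017). The medians of the 10 genes (0.57) and of the other ATF4 factors and targets (0.41) lie farthest to the right, and that of the eIF2 kinases and subunits (0.017) lies on the dashed line.

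Other enzymes and carriers of amino acids were counted in the same way. Of the serine, glycine and one-carbon enzymes outside the 10, 11 of 13 were tested, 4 rose and 1 fell, 45.5% called against 19.9% of all tested genes. The largest rise was in GLDC, which cleaves glycine, from 2.68 ± 1.25 to 7.04 ± 1.25 FPKM (SD, n = 3, log2 change 1.17, limma adjusted p = 0.0182), a call lost in 4 alternatives. GLDC also lies on chromosome 9, where 13 of its 40 nearest tested genes were called lower and 1 higher. With neighbours removed its log2 change was 1.49 (limma adjusted p = 0.00878). Without wild type replicate 3 or IK-KO replicate 3, 3 of these enzymes were called in place of 5. Over all tested genes these fits called 2004 and 1764 in place of 2515. Of the enzymes of asparagine, aspartate, glutamine and proline, 13 of 17 were tested, 2 rose and 1 fell, a share of 23.1% that lies near the 19.9% of all tested genes. PYCR1, which makes proline, had the largest rise (log2 change 0.33) and GOT2, a mitochondrial aspartate aminotransferase, the fall (log2 change −0.39). Of the transporters, 19 of 24 were tested and 4 rose, 21.1% called, which also lies near the 19.9% of all tested genes (10.1% higher). The glycine carrier SLC6A9 led them, from 1.36 ± 0.367 to 5.47 ± 1.15 FPKM (SD, n = 3, log2 change 1.45, limma adjusted p = 0.00236).

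All 23 cytosolic aminoacyl-tRNA synthetase and scaffold genes were tested, 4 rose and 2 fell. This is 26.1% called, against 19.9% of all tested genes (10.1% higher and 9.75% lower). CARS1 had the largest rise (log2 change 0.36, limma adjusted p = 0.00619) and VARS1 the largest fall (log2 change −0.51, limma adjusted p = 0.00408). With the deviation of its neighbours removed, the change of VARS1 was −0.83, and IARS1, the other fall (named after its values were seen), went from −0.45 to −0.09 and was not called (limma adjusted p = 0.223).

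The ATF4 core described above was searched in all 8 lists outside the 10 genes, untested genes included, beside 4.46% of all genes with a window. It was held by 7 of 19 synthetase genes (36.8%), 6 of 21 transporters (28.6%), 4 of 20 further ATF4 factors and targets, 1 of 9 enzymes of asparagine and related amino acids, 1 of 10 serine and one-carbon enzymes, 2 of 26 genes of the ATF6 and XBP1 branch, 1 of 16 eIF2 genes and 0 of 14 NRF2 genes. Of these 22 holders 6 rose, 1 fell, 14 were not called and 1 was not tested, while 10.1% of all tested genes were called higher and 9.75% lower. The lists were chosen with earlier results known and have shares of their own. In the ATF4 list 9 of 16 tested genes rose, beside 4 of 23 synthetase genes, 4 of 19 transporters and 0 of 17 eIF2 genes. Whether holders differ from the rest of their lists was not tested. Over all tested genes with a window, 2.49% held the core, and 2.83% of those that rose. Of the 4 holders in the ATF4 list, ATF3, CEBPG and JDP2 were not called, and FGF21, at 0 FPKM in every library, was the untested one.

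The ATF6 and XBP1 branch of the unfolded protein response, which senses the endoplasmic reticulum as PERK does, had 12 of 28 tested genes called, 9 higher and 3 lower, 42.9% against 19.9%, with a median of 0.29. With median-of-ratios scaling 19 of its genes were called, while the count over all tested genes went from 2515 to 2801. The largest rise of the branch was in ERN1, the kinase and nuclease that splices XBP1, from 2.11 ± 0.757 to 6.68 ± 0.817 FPKM (SD, n = 3, log2 change 1.33, limma adjusted p = 0.00365), and its largest fall in WFS1 (log2 change −0.72). HSPA5, the chaperone BiP and a usual reporter of this branch, was lower, at 102 FPKM in wild type and 88.5 FPKM under the IK-KO label (limma adjusted p = 0.0427). It lies on chromosome 9, where 17 of its 40 nearest tested genes were called lower and 0 higher, with a median of −0.34. The other called genes were ATF6, XBP1, HSP90B1, PDIA3, PDIA4, PDIA6, CANX and HYOU1, higher, and EDEM1, lower (log2 change −0.32). The rises ran from 0.19 (HSP90B1) to 0.80 (XBP1). HSPA5 and these genes were named after their values were seen. With neighbours removed 14 genes of this branch were called, but not ATF6 (log2 change 0.27, limma adjusted p = 0.0573) or HSPA5 (log2 change 0.12, limma adjusted p = 0.145). The NRF2 pathway, which also induces SLC7A11, had 7 of 16 tested genes called, 5 higher and 2 lower, 43.8% against 19.9%, with a median of 0.098. There were 4 called with neighbours removed, with the replicate block, or without IK-KO replicate 1 or 2 or wild type replicate 1 or 3. The count over all tested genes fell as well, from 2515 to 2285 with neighbours removed and 1805 with the replicate block. Without 1 library it was between 1692 and 2004. NFE2L2, which encodes NRF2, rose most (log2 change 0.61, limma adjusted p = 0.00442) and TALDO1 fell most (log2 change −0.28, limma adjusted p = 0.00675). The other called genes were FTL, GSR, GCLC and PRDX1, higher (log2 change 0.35, 0.32, 0.32 and 0.18), and TXN, lower (−0.23). HMOX1 and SRXN1 were listed at 0 in all 6 libraries, and whether such rows reflect absent RNA was not tested. These genes besides NFE2L2 and TALDO1 were named after their values were seen.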

How the data were processed

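PolyA RNA of 3 wild type libraries and 3 labelled IK-KO was prepared with the NEBNext Ultra II RNA kit. The authors deposited 1 table of FPKM per library with confidence bounds, already scaled for transcript length and depth. The submitters' processing notes name STAR 2.6.1c, Cufflinks 2.2.1, HOMER 4.10 and hg38 without their roles. The annotation release and strand setting are not given in the sources used here. Of 60752 rows, those of 1 identifier were summed, and genes with any of the 29 rows not estimated were left out. Member positions follow the tables, counted from 1, and match GENCODE 44 except at the ends of ATF4 and PHGDH.

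For each of the 12652 genes whose mean reached 1 FPKM, log2(FPKM + 1) was fitted by group in limma (version 3.58.1, R 4.3.3). The moderated test let the variance follow the mean and was two-sided, and p-values were adjusted by Benjamini-Hochberg over all these genes. Groups came from the library titles. Ratios and the sum were tested by exact permutation. For the ratios this was done on the log2 scale with a pseudocount of 1 added to each FPKM, while the linear ratios are printed without it. The fit was tested on simulated data. No counts are given, so no count model was used. Relative depth is the median over 7069 genes at 5 to 100 FPKM of FPKM over the squared width of the bounds, relative to the mean of the libraries.

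The 10 genes and all lists were chosen with earlier results of these data known. Named genes are the 10, IKZF1, 17 pathway genes whatever their values, the largest called rise and fall of each list and the 5 genes most like ASNS. Others are marked. The result of 1 gene that this rule names is not reported here.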

Additional observations from a re-analysis of the deposited data

How the results depend on the processing

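With 17 alternatives per gene (16 for SLC7A11, which was below a filter of 5 FPKM), CHAC1, PSAT1, SHMT2, SLC7A11 and SLC7A5 stayed called and DDIT3 and TRIB3 stayed uncalled in each. ASNS lost its call without a filter on low values (log2 change 0.94, limma adjusted p = 0.0534) and kept it in the other 16. PHGDH lost its call without a filter, without a mean-variance trend and with the replicate block, at an unchanged log2 change of 0.30, and without IK-KO replicates 1 and 2 and wild type replicates 1 and 2, where its change ran from 0.24 to 0.35 over the 6 fits without 1 library. ATF4 ran from −0.0031 to 0.077 over those fits and was below 0 without IK-KO replicate 2, never called. The number of the 10 genes called was between 5 (no filter) and 7. Without a filter 2011 of all genes were called, in place of 2515.

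Of the lists, the eIF2 genes had 2 called with neighbours removed, the ATF6 and XBP1 branch 19 with median-of-ratios scaling, and the NRF2 pathway 4 with neighbours removed, without a filter, without a trend and with the replicate block. The count over all genes moved too, from 2515 to 2801 with median-of-ratios scaling and 2285 with neighbours removed. It was 2011 without a filter, 2240 without a trend and 1805 with the replicate block. Over the 6 fits without 1 library the serine and glycine enzymes had 3 to 4 called and the NRF2 pathway 4 to 6, while all tested genes had 1692 to 2004. Among uncalled genes, EIF2AK1 turned to −0.022 with neighbours removed and −0.014 when scaled without mitochondrial transcripts. Without 1 library it ran from −0.11 to 0.12, EIF2AK3 from −0.0043 to 0.35, EIF2AK4 from −0.15 to 0.026 and ASRGL1 from −0.15 to 0.059. The causes were not tested. For libraries that share a replicate number, deviations from the group means correlated at 0.067, 0.025 and 0.0055. Pairs with different numbers ran from −0.088 to 0.060. No pairing was apparent, but 3 libraries in each group are too few to decide it. With the replicate block 1805 of the tested genes were called in place of 2515, ASNS among them (limma adjusted p = 0.0301).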
